A study of Mus musculus with 18 samples.

Results

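Macrophage genes were followed in preparations of organ fibroblasts. The 10 genes are *Adgre1*, *Cd68*, *Csf1r*, *Vsig4*, *Cd163*, *Mrc1*, *Lyz2*, *C1qa*, *C1qb* and *C1qc*, found by symbol among the 38924 Ensembl genes of the count table. They were chosen from genes known in macrophages, with their levels and changes over these libraries in view. Their values and the number called in each comparison are thus given as a description, with no p-value and nothing read from the counts. P-values are given for other genes. The lists of these were also chosen with earlier results of these data known, so the p-values are no independent test. Fibroblasts were grown from heart, kidney and tail of 10-week-old male Rosa mT/mG mice on a C57BL/6 background, which carry a red fluorescent protein (TdTomato) in all cell types and not in fibroblasts alone. After 10 days in culture the cells were placed under the kidney capsule of C57BL6/J mice aged 10 to 11 weeks, which lack TdTomato, and live CD45-;TdTomato+ cells were sorted 3 days later. The sorted cells are called HFs (heart), KFs (kidney) and TFs (tail), and the cells left over, replated for the same 3 days as controls, are called HFc, KFc and TFc. Total RNA of each group was sequenced in 3 libraries, 18 in all from 6 groups, called replicates 1 to 3, for which the sources used here do not state which shared a donor or a recipient, so that errors and p-values measure the spread between libraries, which may be partly technical. CD45 is the product of *Ptprc* and is carried by nearly all leukocytes, and whether the replated controls passed a CD45 gate is not stated for this experiment in the sources used here.

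Macrophages are tissue phagocytes that take up dead cells, microbes and debris. Most depend on the receptor CSF1R, which binds CSF1, made by fibroblasts and other stromal cells, and IL34. The lineage is set up by the transcription factor PU.1, the product of *Spi1*. Resident macrophages of many organs are a main source of C1q, the recognition part of the first complement component, whose proteases C1r and C1s come largely from other cells.

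The 18 libraries held between 17927838 and 32245168 counts, and all 10 genes passed the filter on low counts. Levels are given as CPM (counts scaled to a common library size after the TMM method), and 3 counts in a library were taken as the floor of detection. The library labelled KFs replicate 3 stood apart. Its summed Y-linked genes were at 0.830 on the CPM scale without TMM, against 173.5 to 221.5 in the other 17 libraries, and its *Xist* was at 1716 against at most 0.396, which goes against donors that the labels give as male. Fold changes and counts of calls in kidney are given with it and, where stated, without it. All groups share 1 estimate of the spread for each gene, so this library also enters the errors and p-values of heart and tail. The summed level of 10 marker genes of fibroblasts, such as *Col1a1*, *Dcn* and *Vim*, was high throughout, between 15450 and 125400 CPM, which does not show that each of them was high. The summed level of the 10 macrophage genes was far lower, at 107, 101 and 119 CPM in HFc, 489.6, 480.3 and 453 in KFc and 184, 209.8 and 191 in TFc. It was 100.2, 160.0 and 141 CPM in HFs, 139.8, 99.01 and 12.5 in KFs and 34.04, 44.1 and 43.01 in TFs, so that KFc was the highest and KFs replicate 3 the lowest. In RNA of bulk samples, fewer cells of a type and less RNA per cell cannot be told apart.

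*Csf1r*, on chromosome 18 from 61100598 to 61132149 (GRCm38, plus strand), encodes the receptor for CSF1 and IL34 on which macrophages depend. It was at 12.5, 15.1 and 16.6 CPM in HFc, 77.2, 81.2 and 72.4 in KFc and 24.3, 23.7 and 24.9 in TFc. After transplantation the values were 14.9, 19.4 and 18.6 CPM in HFs, 13.9, 10.9 and 6.57 in KFs and 5.08, 4.64 and 3.48 in TFs. The 3 KFc libraries lay above all others, and in kidney and tail the transplanted and cultured ranges did not overlap. The fitted log2 fold change of transplanted against cultured cells, with its standard error (SE), was -2.88 ± 0.21 in kidney, -2.47 ± 0.22 in tail and 0.26 ± 0.20 in heart, where the ranges overlapped. Without KFs replicate 3 the kidney value was -2.68 ± 0.16. *Csf1r* shares exonic bases with *Hmgxb3* on the other strand, and the authors' counting used strand.

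*Adgre1*, on chromosome 17 from 57358691 to 57483527, encodes F4/80, a surface receptor widely used to mark mouse macrophages. It was at 3.64, 4.16 and 3.59 CPM in HFc, 21.03, 23.2 and 21.5 in KFc and 11.4, 7.61 and 9.52 in TFc. After transplantation the values were 4.99, 7.71 and 6.15 CPM in HFs, 4.08, 1.76 and 0 in KFs and 1.28, 2.27 and 2.29 in TFs. The 3 HFs libraries lay above the 3 HFc libraries, whereas all KFs and TFs libraries lay below their controls. The log2 fold change was 0.73 ± 0.63 in heart, -3.49 ± 0.67 in kidney and -2.28 ± 0.66 in tail. KFs replicate 3 had no count, and without it the kidney value was -2.96 ± 0.32. As the groups share the estimate of the spread, the errors in heart and tail changed too, with 0.75 ± 0.26 and -2.29 ± 0.28 in that fit.

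*Cd68*, on chromosome 11 from 69664213 to 69666153, encodes a lysosomal glycoprotein that is abundant in macrophages and present in other cells with many lysosomes. It was at 5.25, 4.67 and 5.50 CPM in HFc, 18.98, 17.97 and 16.7 in KFc and 7.84, 6.24 and 6.31 in TFc. After transplantation the values were 4.27, 4.72 and 10.9 CPM in HFs, 4.49, 5.19 and 1.08 in KFs and 1.82, 2.59 and 2.38 in TFs. In heart the ranges overlapped, with HFs replicate 3 the highest of the 6 libraries. The log2 fold change was 0.37 ± 0.41 in heart, -2.31 ± 0.42 in kidney (-1.93 ± 0.31 without KFs replicate 3) and -1.58 ± 0.43 in tail.

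*Lyz2* encodes lysozyme M, an enzyme that cleaves bacterial cell walls and is made by macrophages and neutrophils. It lies on chromosome 10 from 117277331 to 117282321 and was the most abundant of the 10 genes in 17 of the libraries. It was at 46.5, 49.5 and 54.8 CPM in HFc, 242, 233 and 233 in KFc and 111, 145 and 121 in TFc. After transplantation the values were 50.7, 95.3 and 80.3 CPM in HFs, 87.6, 64.2 and 2.53 in KFs and 19.9, 25.1 and 25.3 in TFs. In KFs replicate 3 it was at a small part of its level in the other KFs libraries, and *Csf1r* was the most abundant there. The log2 fold change was 0.59 ± 0.63 in heart, -2.20 ± 0.65 in kidney (-1.68 ± 0.21 without KFs replicate 3) and -2.42 ± 0.67 in tail. In the fit without KFs replicate 3, heart and tail had 0.61 ± 0.18 and -2.44 ± 0.19, so the wide errors there came largely from that library. Of the stretches of 75 bases in *Lyz2* exons, the read length, 5.96% are also in *Lyz1*, the neighbouring lysozyme gene. *Lyz1* had at most 58 counts in a library and did not pass the test in any of the 3 comparisons of transplanted with cultured cells.

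*C1qa*, *C1qb* and *C1qc* encode the A, B and C chains of C1q and lie side by side on the minus strand of chromosome 4, at 136895917 to 136898803, 136880129 to 136886187 and 136889804 to 136893065. The levels of *C1qa* were 9.18, 4.91 and 9.53 CPM in HFc, 32.4, 30.1 and 25.6 in KFc and 8.99, 6.71 and 7.63 in TFc, and 5.35, 6.08 and 4.29 in HFs, 4.08, 3.08 and 0.722 in KFs and 0.589, 1.59 and 1.78 in TFs. Those of *C1qb* were 8.67, 6.30 and 8.40 CPM in HFc, 39.9, 40.9 and 34.3 in KFc and 7.06, 8.59 and 8.02 in TFc, and 4.45, 6.92 and 5.28 in HFs, 5.38, 3.46 and 0.401 in KFs and 0.749, 1.68 and 1.40 in TFs. Those of *C1qc* were 8.53, 7.38 and 8.80 CPM in HFc, 40.1, 36.5 and 35.4 in KFc and 8.04, 6.91 and 9.34 in TFc, and 4.81, 3.75 and 4.25 in HFs, 3.56, 2.47 and 0.281 in KFs and 0.642, 1.18 and 1.53 in TFs. The chains thus kept 1 pattern, with KFc the highest, HFc and TFc overlapping, and KFs and TFs below their controls. Over the 18 libraries, which share group and depth, Pearson's r of log2 CPM was between 0.983 and 0.986 for the 3 pairs of chains, and each chain had the others as its nearest genes. In kidney the log2 fold changes were -3.48 ± 0.46, -3.63 ± 0.51 and -4.14 ± 0.49 for *C1qa*, *C1qb* and *C1qc*. Without KFs replicate 3 they were -3.08 ± 0.33, -3.17 ± 0.26 and -3.68 ± 0.24. The corresponding values in tail were -2.53 ± 0.47, -2.61 ± 0.54 and -2.83 ± 0.50. In heart they were -0.59 ± 0.43, -0.48 ± 0.48 and -0.95 ± 0.45, and the ranges did not overlap only for *C1qc*, with the HFs libraries below.

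The 250 bases before the RefSeq start of *C1qb* and *C1qc*, which moved together, and of *Mrc1*, which departed from them, are shown from the GRCm38.p6 table, 5′ to 3′ on the strand of the gene. They come from chr4:136886201-136886450 (minus strand), chr4:136892915-136893164 (minus strand) and chr2:14229164-14229413 (plus strand). Capitals mark GAGGAA, the core of sites bound by PU.1 and other ETS factors, or TTCCTC, the same letters on the other strand.
C1qb: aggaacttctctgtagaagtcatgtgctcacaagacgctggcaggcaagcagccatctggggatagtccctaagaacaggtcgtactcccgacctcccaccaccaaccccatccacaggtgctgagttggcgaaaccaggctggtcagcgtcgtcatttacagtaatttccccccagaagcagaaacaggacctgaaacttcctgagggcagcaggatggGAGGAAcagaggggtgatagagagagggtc
C1qc: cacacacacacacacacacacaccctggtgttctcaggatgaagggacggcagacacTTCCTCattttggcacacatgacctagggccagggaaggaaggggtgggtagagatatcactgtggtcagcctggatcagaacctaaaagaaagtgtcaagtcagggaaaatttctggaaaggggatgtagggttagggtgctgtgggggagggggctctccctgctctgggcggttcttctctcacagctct
Mrc1: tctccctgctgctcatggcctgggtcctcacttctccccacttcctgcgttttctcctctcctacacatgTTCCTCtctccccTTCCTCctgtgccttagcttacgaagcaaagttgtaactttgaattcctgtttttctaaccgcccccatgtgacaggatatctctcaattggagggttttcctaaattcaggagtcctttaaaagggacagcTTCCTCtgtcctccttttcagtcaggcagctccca
The first base of the match lay 30 bases before the start in *C1qb* and 193 in *C1qc*, and *Mrc1* had matches at 180, 167 and 35 bases. Of the 10 genes, 7 had an entry in the table and 5 of these held the letters on either strand (*C1qb*, *C1qc*, *Cd68*, *Mrc1* and *Vsig4*), with no match in *Cd163* and *Lyz2*. The letters stood in 23.3% of the 32851 entries over the same 250 bases, and a match is a description of the sequence only.

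*Mrc1* encodes CD206, the mannose receptor, which takes up glycoproteins and collagen fragments and is found on many resident macrophages and some endothelial cells. It lies on chromosome 2 from 14229392 to 14332057. It was at 12.2, 8.90 and 11.7 CPM in HFc, 17.04, 15.95 and 13.4 in KFc and 4.01, 3.92 and 2.89 in TFc. After transplantation the values were 9.86, 15.9 and 10.2 CPM in HFs, 15.3, 7.50 and 0.682 in KFs and 3.91, 5.04 and 4.84 in TFs. The cultured and transplanted ranges overlapped in each organ. The log2 fold change was 0.13 ± 0.57 in heart, 0.35 ± 0.60 in tail and -0.98 ± 0.57 in kidney, where it was -0.49 ± 0.27 without KFs replicate 3, the library with 17 counts.

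*Cd163* encodes a scavenger receptor for haptoglobin bound to hemoglobin and lies on chromosome 6 from 124304656 to 124330527. Its counts were low, 1, 0 and 1 in HFc, 15, 5 and 7 in KFc and 2, 6 and 1 in TFc, and 15, 4 and 31 in HFs, 35, 13 and 4 in KFs and 1, 1 and 1 in TFs. All HFc and TFs libraries were thus at or under the floor of 3 counts per library. Against this floor the mean of *Cd163* was at least 6.295-fold higher in HFs than in HFc, with bounds from 4.514 to 8.704 on leaving out 1 library. Such bounds, here and below, set the mean of 1 group against the mean floor of the other and do not hold for each library. In kidney, where the ranges overlapped, the log2 fold change was 1.03 ± 0.83 (1.45 ± 0.82 without KFs replicate 3), and no fold is given in tail.

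*Vsig4* encodes a receptor for complement C3b that marks some resident macrophages, such as those of the liver, and lies on chromosome X from 96247203 to 96293438. Its counts were 0, 2 and 0 in HFc, 13, 36 and 20 in KFc and 17, 33 and 18 in TFc. After transplantation they were 0, 0 and 4 in HFs, 0, 0 and 1 in KFs and 0, 0 and 0 in TFs. *Vsig4* was thus above the floor in all 6 cultured kidney and tail libraries and in 1 of the others, HFs replicate 3. Against the floor it was at least 7.125-fold lower in KFs than in KFc and at least 6.10-fold lower in TFs than in TFc, and no fold is given in heart. On leaving out 1 library the bounds were from 5.105 to 8.533 in kidney and from 4.576 to 7.372 in tail.

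**Figure D1:**
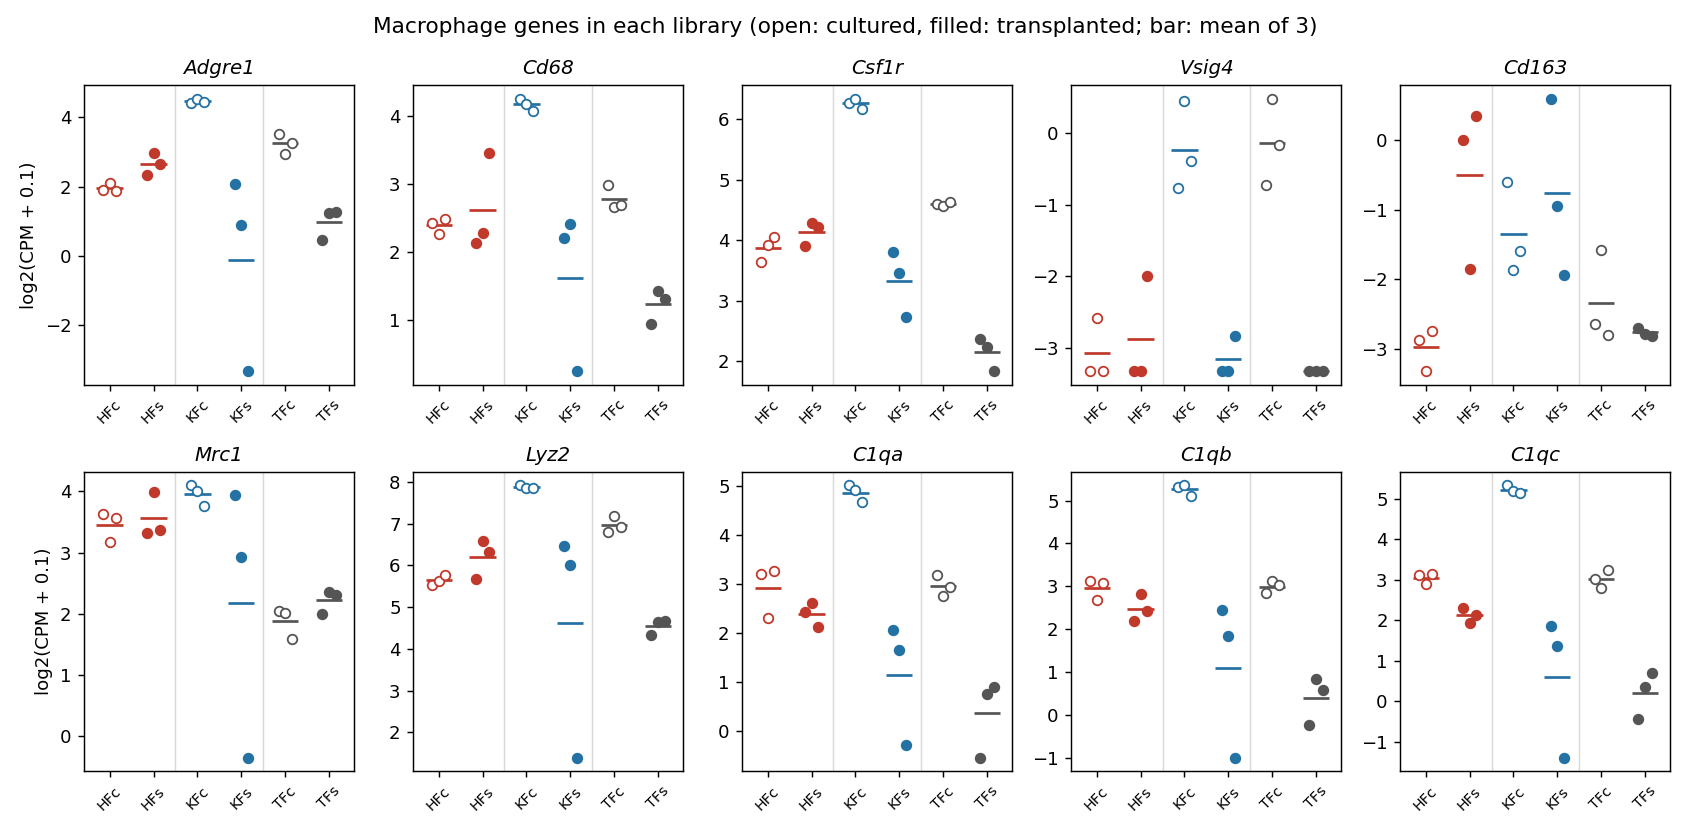
Level of each of the 10 macrophage genes in each of the 18 libraries, as log2(CPM + 0.1) on the vertical axis, by group on the horizontal axis; open points are cultured and filled points transplanted libraries, and bars are means of 3. The 3 KFc points were the highest for *Adgre1*, *Cd68*, *Csf1r*, *Lyz2* and the C1q genes, which were chosen with their levels known. In KFs the lowest point was replicate 3 for all genes but *Vsig4*.

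Transplanted and cultured cells were then compared over all genes, with edgeR's quasi-likelihood test, Benjamini-Hochberg adjustment over the 16577 genes tested, and calls at an adjusted p under 0.05 with a log2 fold change above 1 or below -1. In heart, 1 of the 10 genes (*Cd163*) was called higher and 0 lower, where 18.3% of all genes tested were called higher and 9.33% lower. In kidney 0 were called higher and 8 lower (all but *Cd163* and *Mrc1*), against 14.7% and 7.99% of all genes. The tail comparison likewise had 0 called higher and 8 lower, with *Cd163* and *Mrc1* again apart, against 11% and 5.53%. Without KFs replicate 3 the kidney count was 0 higher and 8 lower, with a median of -2.82. The median log2 fold change over the 10 genes was 0.32 in heart, -3.18 in kidney and -2.45 in tail, beside 0.05, 0.09 and 0.00 over all genes tested. With genes at the floor set to their bound, it was 0.20, -2.86 and -2.45.

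**Figure D2:**
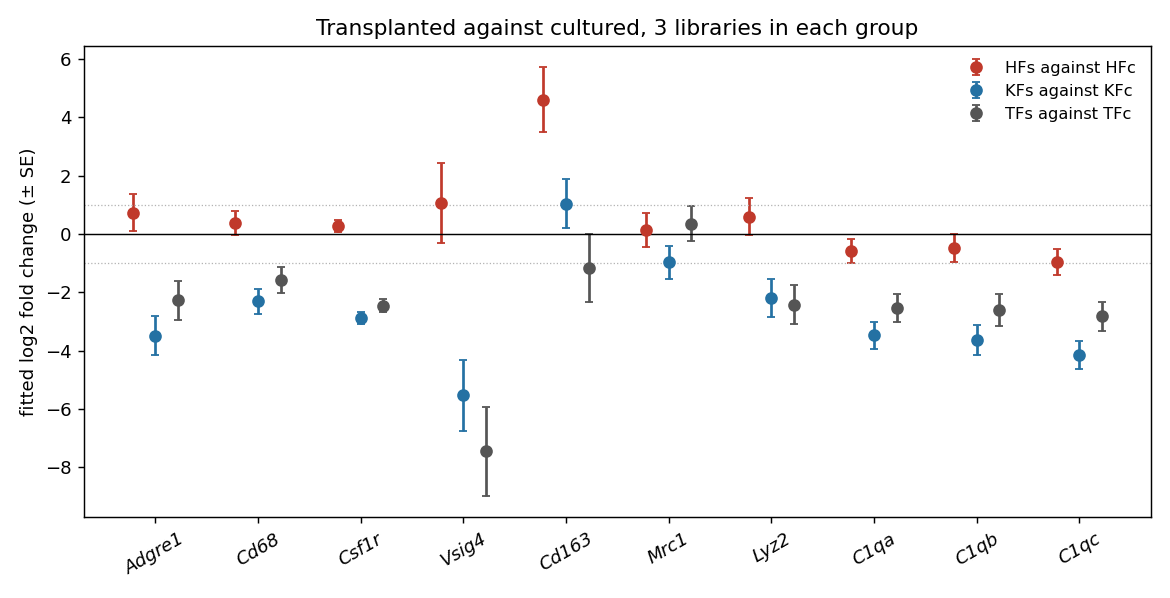
Fitted log2 fold change (± SE) of transplanted against cultured libraries for each macrophage gene, with dotted lines at the fold-change limits of 1 and -1. Values for *Vsig4*, and for *Cd163* in heart and tail, depend on groups at or under 3 counts. The kidney and tail points of the 8 genes other than *Cd163* and *Mrc1* lay below -1, as did that of *Cd163* in tail, at -1.17, whereas in heart only *Cd163*, at 4.59, stood far from the dotted lines.

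Over the 6 groups KFc had the highest mean of 8 of the 10, all but *Vsig4* and *Cd163*, and among the cultured groups also of *Cd163*. These counts too are descriptions of genes chosen with their levels known. Between KFc and TFc, 6 genes were called higher in KFc and 0 lower at an adjusted p under 0.05, where 17.8% of all genes tested were higher and 18.5% lower. The 6 were *Cd68*, *Csf1r*, *Mrc1*, *C1qa*, *C1qb* and *C1qc*, and the largest difference was 2.28 ± 0.48 for *C1qb*. HFc lay below KFc in 9 genes and above in 0, against 14% and 15.1% of all genes, and the exception was *Mrc1* at -0.50 ± 0.56. HFc had 1 gene higher than TFc (*Mrc1*, 1.60 ± 0.59) and 2 lower (*Csf1r*, -0.72 ± 0.20, and *Vsig4*, at least 7.226-fold lower), against 20.9% and 21%. In the fit without KFs replicate 3, these counts were 1 and 4, and those for KFc against TFc 8 and 0. The C1q genes differed little between HFc and TFc, by 0.01 ± 0.42, -0.02 ± 0.47 and 0.02 ± 0.43 on the log2 scale for the A, B and C chains.

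After transplantation the order changed. HFs exceeded TFs in 6 genes and lay below in 0, beside 10.3% and 12.7% of all genes tested, and in 9 and 0 in the fit without KFs replicate 3. These were *Cd68*, *Csf1r*, *Cd163* and the C1q genes, with 2.01 ± 0.22 for *Csf1r*. Between KFs and TFs, 2 genes (*Csf1r* and *Cd163*) were called higher in KFs and 0 lower, beside 15.3% and 13.8% of all genes. Without KFs replicate 3, 8 were called higher and 0 lower. The count was 1 without KFs replicate 1, TFs replicate 2 or TFs replicate 3. HFs and KFs differed in 1 gene, *Csf1r*, higher in HFs by 0.76 ± 0.21 (0.53 ± 0.15 without KFs replicate 3), and 0 were lower, beside 14.2% and 19% of all genes. That count was 2 without KFs replicate 3 and 6 without KFs replicate 1.

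The order of the group means was KFc, TFc, HFs, HFc, KFs and TFs for *Cd68* and *Csf1r*, and the same for *Adgre1* but with TFs before KFs, whose ranges overlapped. For *Csf1r* the neighbours HFs, HFc and KFs overlapped along this order and the others were apart, and for *Cd68* only KFc and TFc were apart. *Adgre1* had overlap between TFc and HFs and between TFs and KFs. *Lyz2* ran KFc, TFc, HFs, KFs, HFc and TFs, with overlap among HFs, KFs and HFc. *C1qa* and *C1qc* both ran KFc, HFc, TFc, HFs, KFs and TFs, with overlap between HFc and TFc and between KFs and TFs. *C1qb* ran KFc, TFc, HFc, HFs, KFs and TFs, and only KFc was apart from its neighbour. *Mrc1* ran KFc, HFs, HFc, KFs, TFs and TFc, with overlap of every pair of neighbours, and *Cd163* ran HFs, KFs, KFc, TFc, TFs and HFc, likewise with overlap throughout. *Vsig4* began with TFc and KFc, which overlapped each other and were apart from HFs. The KFs means include replicate 3, the lowest KFs library for all genes but *Vsig4*, so the place of KFs depends on it. In the fit without it, KFs lay above TFs by 0.55 ± 0.32 for *Adgre1*. HFs against KFs was then at 0.01 ± 0.20 for *Lyz2*, 0.09 ± 0.27 for *Mrc1* and -0.26 ± 0.81 for *Cd163*.

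Levels of different genes were compared per kilobase of exonic length. In KFc, the group with the highest levels, *Lyz2* stood at 179.4 CPM per kilobase, followed by *C1qb* at 35.3, *C1qa* at 28.2, *C1qc* at 19.3, *Cd68* at 14.2 and *Csf1r* at 13.3. *Adgre1* was at 6.76, *Mrc1* at 2.43, *Vsig4* at 0.540 and *Cd163* at 0.0590. With the length of the longest transcript in place of all exons, *C1qc* was at 31.1 and came before *C1qa*, and *Csf1r* at 16.4 came before *Cd68* at 14.5.

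Ratios of counts within a library do not depend on its depth. Counts of *Mrc1* per *Csf1r* count were 0.221, 0.196 and 0.185 in KFc and 0.165, 0.166 and 0.116 in TFc. They were 1.11, 0.688 and 0.104 in KFs and 0.768, 1.09 and 1.39 in TFs. All TFs libraries were thus above all TFc libraries, and 2 of the 3 KFs libraries above KFc, with replicate 3 below. In heart the ratio was 0.983, 0.588 and 0.706 in HFc and 0.664, 0.816 and 0.550 in HFs, which overlapped.

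The summed C1q counts per *Csf1r* count were 2.12, 1.23 and 1.61 in HFc and 0.984, 0.862 and 0.744 in HFs, all lower after transplantation. In kidney they were 1.46, 1.32 and 1.32 in KFc and 0.939, 0.827 and 0.213 in KFs, again without overlap, and in tail 0.994, 0.939 and 1.01 in TFc and 0.390, 0.961 and 1.35 in TFs, with overlap. *Lyz2* per *Csf1r* count lay between 2.87 and 6.32 in the libraries outside TFs apart from KFs replicate 3, which was at 0.384, and at 3.92, 5.41 and 7.27 in TFs. *Csf1r* alone made up 52.7% of the counts of the 10 genes in KFs replicate 3 and between 8.09% and 16.9% in the others.

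*Ptprc*, the gene of the antigen used in the sort, was present in transplanted libraries. Its mean level was 5.41 ± 0.05 CPM (SD, n = 3) in HFc and 7.76 ± 3.97 in HFs, 15.2 ± 0.45 in KFc and 5.34 ± 4.48 in KFs, and 4.79 ± 0.84 in TFc and 3.86 ± 0.24 in TFs. KFs replicate 3 was at 0.241 CPM. The log2 fold changes were 0.53 ± 0.63 (adjusted p = 0.495) in heart, -1.50 ± 0.64 (adjusted p = 0.0619) in kidney and -0.31 ± 0.65 (adjusted p = 0.735) in tail. Without KFs replicate 3 the kidney value was -0.99 (adjusted p = 0.0105), under the adjusted p of 0.05 but short of the fold-change limit. Per *Csf1r* count, *Ptprc* was at 0.158, 0.226 and 0.210 in TFc and 0.811, 0.824 and 1.05 in TFs, and at 0.192, 0.193 and 0.208 in KFc and 0.513, 0.794 and 0.0366 in KFs. It was therefore higher relative to *Csf1r* in all TFs and in 2 of the 3 KFs libraries than in their controls. In heart the values were 0.430, 0.358 and 0.329 in HFc and 0.251, 0.406 and 0.628 in HFs.

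**Figure D3:**
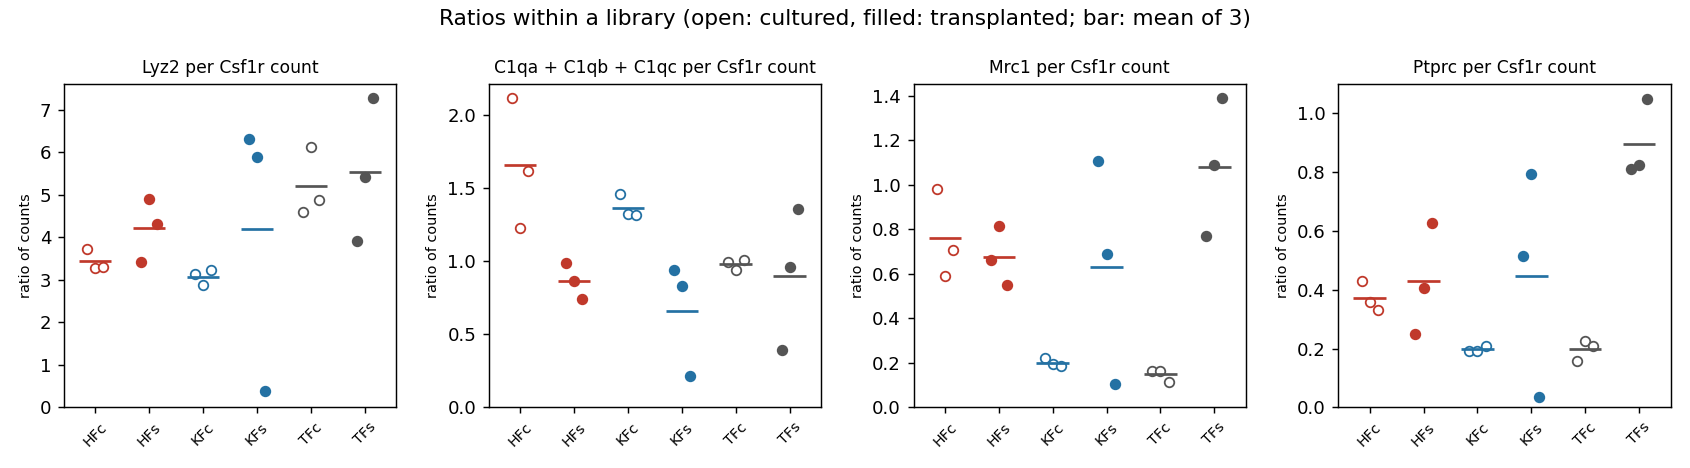
Counts of *Lyz2*, of the summed C1q genes, of *Mrc1* and of *Ptprc* per count of *Csf1r* in each library, by group; open points are cultured and filled points transplanted libraries, and bars are means of 3. *Mrc1* and *Ptprc* per *Csf1r* were higher in all TFs than in all TFc libraries, and KFs replicate 3 was the lowest KFs point in each panel.

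To describe macrophage genes beyond the 10, a list of 52 others was used, of which 47 had enough counts to be tested. This list too was chosen with earlier results of these data known, so its counts and p-values are no independent test. In heart 17 rose and 1 fell after transplantation, in kidney 4 rose and 21 fell, and in tail 7 rose and 8 fell. The median log2 fold changes were 0.72, -1.07 and -0.34. Over all genes tested, 18.3% rose and 9.33% fell in heart, 14.7% and 7.99% in kidney and 11% and 5.53% in tail, with medians of 0.05, 0.09 and 0.00, so that the share that rose in tail was near that of all genes. Without KFs replicate 3, with 48 genes tested, 20 rose and 1 fell in heart, 6 rose and 21 fell in kidney and 8 rose and 13 fell in tail. The 25 kidney calls were also made without it, and *Clec7a* and *Chil3*, the latter tested only then, were added. Below, values in square brackets are log2 fold changes in that fit, given for comparisons that KFs enters. All p-values of list genes are from edgeR's quasi-likelihood test, adjusted over all genes tested.

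Among 6 transcription factors of the lineage, 4 rose in heart, among them *Cebpa* with 2.98 ± 0.26 (adjusted p = 2.12e-07) and *Irf8* with 1.29 ± 0.33 (adjusted p = 0.00373). Both act in myeloid development and are used by other cell types too. In kidney 4 fell, among them *Spi1* with -3.14 ± 0.65 [-2.63] (adjusted p = 0.000952), *Cebpa* with -1.62 ± 0.22 [-1.63] (adjusted p = 2.31e-05) and *Irf8* with -1.40 ± 0.33 [-1.23] (adjusted p = 0.00239). In tail *Spi1* fell with -1.81 ± 0.67 (adjusted p = 0.0424) and *Irf8* rose with 1.01 ± 0.34 (adjusted p = 0.0294). Both tail calls were lost on leaving out 1 library: for *Spi1* the log2 fold change was between -2.01 and -1.54 without TFc replicate 2 or 3 or any TFs replicate. For *Irf8* it was between 0.77 and 1.04 without TFc replicate 2 or 3 or TFs replicate 1 or 2, and 0.98 in the fit without KFs replicate 3. *Spi1* was called in tail in that fit, at -1.82 (adjusted p = 0.00109). In the main fit *Spi1* was at 0.41 ± 0.62 in heart (adjusted p = 0.59), and its responses in heart and kidney differed by 3.55 ± 0.89 [3.06] (adjusted p = 0.0082).

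Of 10 genes shared by most leukocytes, 7 fell in kidney and 0 rose. The largest falls were those of *Laptm5*, a lysosomal membrane protein, with -3.26 ± 0.52 [-2.78] (adjusted p = 0.000112), of *Vav1*, a signalling adaptor, with -2.69 ± 0.66 [-2.17] (adjusted p = 0.00344), and of the GTPase gene *Rac2* with -2.52 ± 0.52 [-2.11] (adjusted p = 0.000922). In tail 3 fell, *Laptm5* with -2.01 ± 0.53 (adjusted p = 0.00755), the integrin gene *Itgb2* with -1.40 ± 0.47 (adjusted p = 0.0291) and *Cd53* with -1.04 ± 0.37 (adjusted p = 0.038). The tail call of *Itgb2* was lost without any 1 of the 6 libraries, between -1.46 and -1.33, and that of *Cd53* without TFc replicate 2 or TFs replicate 1 or 3, between -1.11 and -0.67. In the fit without KFs replicate 3 both were called in tail, *Itgb2* at -1.42 (adjusted p = 0.000287) and *Cd53* at -1.05 (adjusted p = 0.0252). In heart only *Cd53* was called, and it rose with 1.46 ± 0.34 (adjusted p = 0.00193).

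Fc receptors, receptors that signal through ITAM adaptors and *Cd14* made up another 10 genes. *Fcgr2b*, the inhibitory Fc receptor, rose in all 3 organs, with 3.46 ± 0.48 (adjusted p = 2.22e-05) in heart, 2.48 ± 0.45 [2.74] (adjusted p = 0.000357) in kidney and 2.88 ± 0.50 (adjusted p = 0.000369) in tail. *Clec7a*, which binds fungal glucans, rose in heart with 3.26 ± 0.57 (adjusted p = 0.000186) and in tail with 2.79 ± 0.71 (adjusted p = 0.00577). In kidney it had 1.05 ± 0.50 [1.38] (adjusted p = 0.097), and without KFs replicate 3 it was called there. *Cd14* rose in heart with 1.36 ± 0.50 (adjusted p = 0.031), a call lost without HFc replicate 1 or 2 or HFs replicate 2 or 3, between 1.14 and 1.46. In the fit without KFs replicate 3 it was called in heart, at 1.385 (adjusted p = 0.0037). The lipid receptor gene *Trem2* fell in kidney with -3.96 ± 0.52 [-3.56] (adjusted p = 1.87e-05) and in tail with -3.58 ± 0.58 (adjusted p = 0.000198). Also lower in kidney were the adaptors *Fcer1g*, with -2.97 ± 0.73 [-2.44] (adjusted p = 0.00321), and *Tyrobp*, with -2.42 ± 0.77 [-1.88] (adjusted p = 0.0166). *Tyrobp* was no longer called without KFc replicate 1, at -2.20. It had -1.98 ± 0.82 (adjusted p = 0.0687) in tail, where it was called in the fit without KFs replicate 3, and 0.36 ± 0.78 (adjusted p = 0.715) in heart. *Fcgr3*, an activating Fc receptor, fell in tail with -1.89 ± 0.57 (adjusted p = 0.016), a call lost without TFs replicate 1, at -1.71. In the fit without KFs replicate 3 it was called in tail, at -1.90 (adjusted p = 9.07e-06).

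Of the 10 scavenger and efferocytosis receptors, 8 were tested. *Folr2*, a folate receptor of resident macrophages, fell in kidney with -3.89 ± 0.56 [-3.55] (adjusted p = 3.83e-05) and in tail with -4.34 ± 0.62 (adjusted p = 6.45e-05). In heart it rose with 1.73 ± 0.63 (adjusted p = 0.0286), from 3 to 5 counts to between 4 and 24, and this call was lost without HFc replicate 1 or 2 or HFs replicate 3, between 1.24 and 1.72. In the fit without KFs replicate 3 *Folr2* was called in heart, at 1.77 (adjusted p = 0.0127). The fatty acid transporter *Cd36*, also found on endothelial and fat cells, rose in heart with 4.64 ± 0.86 (adjusted p = 0.000296). *Cd5l*, which macrophages secrete, was at 0 counts in HFc and at least 3.17-fold higher in HFs against the floor (adjusted p = 0.0158). *Mertk*, a receptor for dying cells, fell in heart with -1.63 ± 0.34 (adjusted p = 0.000791) and rose in tail with 1.92 ± 0.37 (adjusted p = 0.000891). *Msr1* fell in kidney with -2.64 ± 0.67 [-2.16] (adjusted p = 0.00409) and *Stab1* in tail with -1.41 ± 0.17 (adjusted p = 1.62e-05).

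The other 16 genes, 13 of them tested, held the largest rises. *Ccr2*, the chemokine receptor of inflammatory monocytes, was at least 46.1-fold higher in HFs than in HFc against the floor, with an adjusted p of 7.64e-05. It rose in kidney with 5.48 ± 1.05 [5.98] (adjusted p = 0.000504) and in tail with 4.15 ± 1.01 (adjusted p = 0.00455). *Arg1*, which encodes arginase and is induced in wound macrophages and some other cells, was at least 45.5-fold higher in HFs (adjusted p = 3.59e-05), or 21.6-fold without HFs replicate 3, and at least 15.9-fold higher in TFs (adjusted p = 0.0013). In kidney *Arg1* rose with 8.16 ± 0.88 [8.33] (adjusted p = 6.07e-06), from 0.118 CPM in KFc to 34.8 ± 21.7 (SD, n = 3) in KFs. *F13a1*, a coagulation factor made by monocytes and macrophages, rose in heart with 4.80 ± 0.85 (adjusted p = 0.000202) and in kidney with 2.44 ± 0.72 [2.95] (adjusted p = 0.0111), the latter not without KFs replicate 1, at 1.61. *Itgax* was at least 4.20-fold higher in TFs than in TFc (adjusted p = 0.0444), a call lost without any TFc replicate or TFs replicate 1 or 2. In the fit without KFs replicate 3 *Itgax* was called in tail (adjusted p = 0.0113). In kidney *Mpeg1* fell with -2.33 ± 0.45 [-1.89] (adjusted p = 0.000529), *Gpnmb* with -2.12 ± 0.39 [-1.996] (adjusted p = 0.000339) and *Ms4a7* with -1.36 ± 0.36 [-1.12] (adjusted p = 0.0054).

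**Figure D4:**
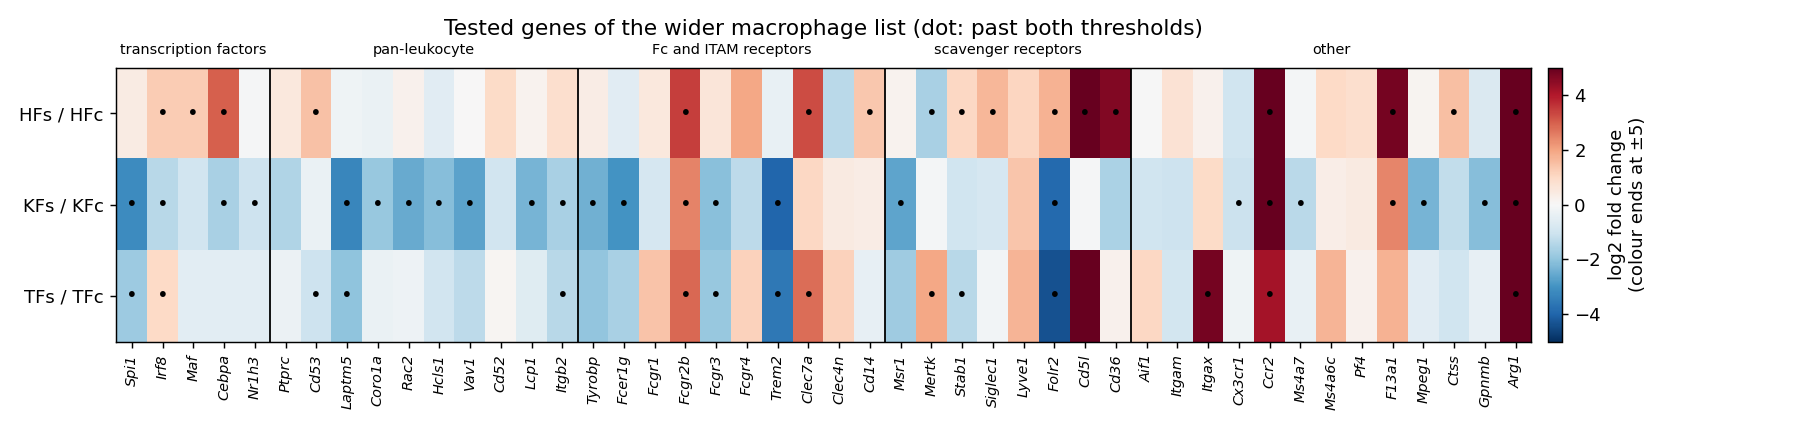
Fitted log2 fold change of transplanted against cultured cells (colour, ending at -5 and 5) for the tested genes of the wider macrophage list but 1 not shown, in columns by sub-list, in the 3 organs as rows; a dot marks an adjusted p under 0.05 with a log2 fold change above 1 or below -1. Most of the kidney row is blue, with 21 genes called lower, whereas in the heart row most dots stand on genes called higher, and *Fcgr2b*, *Ccr2* and *Arg1* are called higher in all rows.

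The wider list was also compared between organs. In culture KFc exceeded TFc in 31 of the 47 genes and lay below in 2, and HFc lay below KFc in 26 and above in 2. Of all genes tested 17.8% and 18.5% were higher and lower in the former comparison, and 15.1% and 14% in the latter. Between HFc and TFc 8 were higher and 9 lower, which is no larger a share than the 20.9% and 21% of all genes. The total for KFc against TFc was 20 without TFc replicate 1 and 21 without TFc replicate 3, and that for HFc against TFc was 11 without HFc replicate 1. In the fit without KFs replicate 3, a library of another group, 37 were higher and 3 lower in KFc against TFc. HFs exceeded TFs in 16 genes and lay below in 4, beside 10.3% and 12.7% of all genes, and the total of 20 was 35 (31 and 4) in the fit without KFs replicate 3, 12 without HFs replicate 2 or 3, 11 without TFs replicate 1 and 13 without TFs replicate 2. Between KFs and TFs 6 were higher and 5 lower, not above the 15.3% and 13.8% of all genes, and without KFs replicate 3 the counts were 26 and 4. Between HFs and KFs 5 were higher and 4 lower, not above the 14.2% and 19% of all genes, and 4 and 4 without KFs replicate 3. *Cd53* had 3.40 ± 0.34 (adjusted p = 1.79e-06) in KFc against TFc, and *Folr2* had -5.27 ± 0.62 (adjusted p = 1.09e-05) in HFc against KFc.

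The responses themselves were compared by interaction contrasts at an adjusted p under 0.05. Between heart and tail, 8 of the 10 genes had a higher log2 fold change in heart and 0 a lower one, where 10.1% and 12.7% of all genes tested did. As the genes were chosen with their changes known, this count and those that follow restate the choice. The 8 include *Vsig4*, of which HFc, TFs and all HFs libraries but replicate 3 were at or under the floor, and *Cd163*, of which HFc and TFs were. *Csf1r* differed by 2.73 ± 0.30 and *Mrc1* by -0.21 ± 0.82, and *Mrc1* and *C1qc* were the 2 not called. Between heart and kidney, 8 were higher in heart and 0 lower, beside 10.7% and 15.5% of all genes, with 3.14 ± 0.29 for *Csf1r* (2.97 ± 0.21 without KFs replicate 3), and *Cd163* and *Mrc1* were not called. Between kidney and tail, 0 were higher and 0 lower, beside 4.99% and 6.07%. There *Csf1r* differed by -0.41 ± 0.29 and *Lyz2* by 0.23 ± 0.89, and without KFs replicate 3 by -0.19 ± 0.21 and 0.76 ± 0.27, and the counts of the 10 were again 0 and 0. A difference that was not called does not show that the organs responded alike.

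In the wider list, 12 genes had a higher and 1 a lower response in heart than in tail, and 21 a higher and 1 a lower response in heart than in kidney. The 1 lower gene was *Mertk* in both, with -3.55 ± 0.51 (adjusted p = 0.000172) and -1.54 ± 0.48 [-1.84] (adjusted p = 0.0283). *Folr2* and *Trem2* were among the higher ones, by 5.62 ± 0.83 [5.32] (adjusted p = 0.000254) and 3.59 ± 0.70 [3.21] (adjusted p = 0.00168) against kidney. Of all genes tested, 10.1% had a higher and 12.7% a lower response in heart than in tail, and 10.7% and 15.5% in heart than in kidney. Between kidney and tail 0 genes of the list were higher and 5 lower, among them *Irf8* with -2.41 ± 0.47 [-2.21] (adjusted p = 0.00437). Over all genes tested the shares there were 4.99% and 6.07%. The total of 13 for heart against tail was 8 without HFc replicate 1 and 24 (23 higher and 1 lower) in the fit without KFs replicate 3, and the 22 for heart against kidney were then 30 (29 and 1). The 5 for kidney against tail were between 2 and 9 on leaving out 1 library: 3 without KFc replicate 1, TFc replicate 1 or TFs replicate 2, 2 without KFc replicate 2, TFc replicate 3 or TFs replicate 3, 9 without KFs replicate 1 and 8 without KFs replicate 3.

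Ligands of these receptors were abundant. *Csf1*, the main ligand of CSF1R, was at 1902 ± 56.4 CPM (SD, n = 3) in HFc, 2073 ± 37.6 in KFc and 1935 ± 24.7 in TFc. It fell after transplantation to 390.6 ± 95.7 CPM in HFs, 369.1 ± 35.3 in KFs and 612.0 ± 117.1 in TFs, with log2 fold changes of -2.28 ± 0.16 (adjusted p = 2.43e-08), -2.49 ± 0.16 [-2.46] (adjusted p = 1.72e-08) and -1.66 ± 0.16 (adjusted p = 1.17e-06). In heart *Csf1r* had 0.26 ± 0.20, and a link between the levels of *Csf1* and *Csf1r* was not tested. *Il34*, the other ligand, was not called in any organ. In the fit without KFs replicate 3 it was called lower in heart, at -1.27 (adjusted p = 0.00433). Of the ligands of MERTK, *Gas6* rose in heart with 2.41 ± 0.51 (adjusted p = 0.000906) and fell in kidney with -2.23 ± 0.51 [-1.84] (adjusted p = 0.00197). *Pros1* rose in heart with 1.90 ± 0.13 (adjusted p = 2.66e-08) and in kidney with 1.26 ± 0.13 [1.39] (adjusted p = 1.77e-06).

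C1q acts together with the proteases C1r and C1s and then with C4 and C2, under control of the C1 inhibitor, the product of *Serping1*. Over all genes tested, 18.3% rose in heart, 14.7% in kidney and 11% in tail, and 7.99% fell in kidney. Of 6 such genes, 5 rose in heart, 4 in kidney and 5 in tail, and 1, *C1rl*, fell in kidney with -1.35 ± 0.36 [-0.97] (adjusted p = 0.00545), short of the fold-change limit without KFs replicate 3. *C1s1* rose with 6.27 ± 0.53 (adjusted p = 1.64e-07) in heart, 1.61 ± 0.42 [1.98] (adjusted p = 0.00484) in kidney and 3.57 ± 0.45 (adjusted p = 2.1e-05) in tail. *Serping1* rose with 3.17 ± 0.47 (adjusted p = 3.93e-05), 2.45 ± 0.46 [2.88] (adjusted p = 0.000416) and 3.97 ± 0.49 (adjusted p = 1.68e-05). *C1ra* likewise rose in each organ, with 2.52 ± 0.40 (adjusted p = 0.000179) in tail, where the C1q genes lay below their controls.

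Markers of other cell types were read in the same libraries. Of all genes tested, 18.3% rose and 9.33% fell in heart, 14.7% and 7.99% in kidney and 11% and 5.53% in tail. Of 8 proximal tubule genes, 8 rose in heart, 7 in kidney and 8 in tail, and their summed level was 13.6 to 101.9 CPM in cultured and 64.8 to 1296 CPM in transplanted libraries. Between 4 and 6 of them were at 0 in every library of a cultured group, *Kap* among them, and none in a transplanted group. Of 6 endothelial genes, 5 rose in heart, 3 in kidney and 3 in tail, and 1 fell in kidney, with sums of 34.7 to 42.5 CPM in culture and 24.6 to 68.1 after transplantation. Several defining lymphocyte and granulocyte genes, named for their low counts, were near 0: *Ly6g* and *Cpa3* had no count in any library, and *Cd3e*, *Cd3g*, *Cd79b* and *Ms4a1* at most 4. Neutrophil genes nonetheless summed to 6.00 to 11.8 CPM in cultured and 16.53 to 24.15 in transplanted libraries. T cell genes summed to 0.590 to 1.75 and 3.40 to 8.125 CPM, and B cell genes to 0.789 to 2.40 and 6.18 to 16.8. Mast cell sums overlapped, at 0 to 0.619 and 0.107 to 6.45 CPM. Of 9 neutrophil genes 3 were tested, and 3 rose in heart, 2 in kidney and 1 in tail, while *S100a8* and *S100a9* were at 0 in culture and reached 15 and 41 counts in KFs. Of 6 T cell genes 3 were tested, and 2, 1 and 2 rose in heart, kidney and tail, of 5 B cell genes 1 was tested, *Pax5*, and rose in each, and of 3 mast cell genes 1 was tested, *Kit*, and rose in heart and kidney. Of 7 dendritic cell genes 4 were tested and 1 rose in each organ, too few to set apart from the shares of all genes. Of 2 Langerhans cell genes, *Cd207* fell in each organ, at least 22.6-fold in kidney and 5.91-fold in tail against the floor and from at most 3 counts in heart, and *Epcam*, also an epithelial gene, rose in tail. Of 5 genes of osteoclasts, which share the lineage, 4 were tested and 4, 3 and 3 rose, led by *Mmp9* with 8.95 ± 0.65 (adjusted p = 3.95e-08) in heart. Of the 10 fibroblast genes 6 rose and 3 fell in heart, 6 rose and 1 fell in kidney, and 5 rose and 2 fell in tail. In the fit without that library, *Kit*, *Tek* and *Cubn* were not called in kidney, with 1.51, -0.89 and 1.08, whereas the neutrophil genes *S100a8*, *S100a9*, *Camp* and *Mpo* and the osteoclast genes *Ctsk* and *Dcstamp* were called higher. The part of other cell types in the levels of the macrophage genes was not tested.

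The genes whose log2 CPM most resembled the mean of the 10 over the 18 libraries were sought among all genes tested. The nearest were *C3ar1* (Pearson's r = 0.979), *Laptm5* (0.973), *Spi1* (0.966), *Fcgr3* (0.965), *Cyth4* (0.959), *Myo1f* (0.955), *Inpp5d* (0.951), *Lair1* (0.946), *Cd300lb* (0.943) and *Gm49339* (0.942). The libraries share groups and depth, so these are descriptions. *C3ar1* encodes the receptor for complement C3a, and its mean level was 3.34 CPM in HFc, 4.97 in HFs, 21.01 in KFc, 3.06 in KFs, 7.15 in TFc and 1.36 in TFs. The first 5 of these were also among the nearest 10 without KFs replicate 3. Among the single genes, *Adgre1* and *Lyz2* had r = 0.965 with each other, and *Csf1r* was nearest to *Pik3ap1* (0.978), a signalling adaptor of leukocytes. *Mrc1* was nearest to *Elmo1* (0.935) and *Il10ra* (0.931), and had *Pdgfrb*, a receptor of fibroblasts and pericytes, next (0.906). *Vsig4* was nearest to *Hmox1* (0.938), and *Cd163* to *Gla* and *Adgrd1* (0.826 each).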

How the data were processed

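The 18 libraries of heart, kidney and tail fibroblasts were measured by stranded total RNA sequencing with single-end reads of 75 bases (SMARTer Pico kit). After quality trimming, the authors ran RSEM with Bowtie2 on GRCm38, counting by strand, and deposited expected counts per gene, as whole numbers without normalization; the submitters' processing notes name mm9 as the build, and the table holds no coordinates. Group and replicate were taken from the sample titles. Symbols and positions come from GENCODE M21 (GRCm38), which matched 37607 genes and lacked 1317 (0.277% of counts), and promoter sequences from RefSeq (GRCm38.p6). The main test was edgeR's quasi-likelihood test (version 4.0.16, R 4.3.3; glmQLFit and glmQLFTest), with TMM factors, genes kept by filterByExpr, one mean per group over all 18 libraries and Benjamini-Hochberg adjustment over 16577 genes. CPM uses TMM library sizes, and correlations log2 CPM with a prior count of 2. SE is the log2 fold change divided by the square root of F. The fit was tested on simulated data. Floors cover counting error only, since no molecular identifiers are named. The 10 genes and all lists were chosen with earlier results of these data known. The text names all 10, Ptprc, Spi1, Tyrobp and Lyz1, per list the called genes with the largest change (at most 3 per direction), and the nearest genes by correlation; Folr2, Trem2, Irf8, Cd53 and Mertk in comparisons of organs or responses, C3ar1 as an example, and markers of other cell types named for their counts near 0 were chosen after their values were seen. Values of some listed genes are not reported here. Alternatives were DESeq2 1.42.0, RLE size factors or library size alone, a mean of at least 10 counts or no filter, a block for the replicate number, fits restricted to the groups compared, no fold-change limit, each library left out, other transcript lengths, a prior count of 5 and Spearman's rho; fits without KFs replicate 3 for results it does not enter and for other lists, medians with bounds, and bounds with each library left out, were added after the data were seen. Figures were drawn in Python 3.11.15 with matplotlib 3.10.9.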

Additional observations from a re-analysis of the deposited data

Results flagged for a closer look

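Several results differed between organs under the same contrast. In the wider macrophage list, with 47 genes tested, 13 genes responded differently to transplantation in heart and tail, 5 in kidney and tail and 22 in heart and kidney, by an interaction contrast in edgeR at an adjusted p under 0.05. Over all genes tested, 10.1% were higher and 12.7% lower for heart against tail. The shares were 4.99% and 6.07% for kidney against tail, and 10.7% and 15.5% for heart against kidney. With both directions pooled, the total for kidney against tail was thus no larger a share than over all genes, and that for heart against tail was near it. The directions were uneven, with 12 higher and 1 lower for heart against tail, 0 and 5 for kidney against tail and 21 and 1 for heart against kidney. In the fit without KFs replicate 3, with 48 genes tested, they were 23 and 1, 0 and 8, and 29 and 1. *Spi1* differed between heart and kidney by 3.55 on the log2 scale (adjusted p = 0.0082), and by 3.06 without KFs replicate 3. *Adgre1* moved in opposite directions: all 3 HFs libraries lay above all HFc libraries, with a log2 fold change of 0.73, whereas all KFs and all TFs libraries lay below their controls, with -3.49 and -2.28. The responses of *Adgre1* in heart and kidney differed by 4.22 ± 0.91 (3.71 ± 0.41 without KFs replicate 3) and those in heart and tail by 3.01 ± 0.91, both called, but *Adgre1* was chosen with these values known, so that this is a description and no independent test of the difference in direction was made.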

How the results depend on the processing

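For transplanted against cultured cells, no fold change of the 10 genes or of the named genes of the wider list changed sign past its threshold under any alternative run. For the other comparisons only counts of calls were followed, and signs were not compared. Under RLE size factors, library size alone, no filter, no fold-change limit and a replicate block, all counts of genes called stayed within 1.5 times. RLE moved the median of all genes to 0.11 in heart and library size alone to 0.15 in kidney (log2), while the direction of each of the 10 genes was kept where it was called. With a mean of at least 10 counts, which removes Cd163 and Vsig4, the members called were 0 in heart and 1 for KFs against TFs. The fit of only the groups compared gave 16 list genes in kidney, 7 for KFs against TFs, 2 for HFs against KFs, 22 for heart against tail responses and 3 for kidney against tail responses, and members called were 0 in heart, 6 for HFc against TFc, 0 for KFs against TFs and 0 for HFs against KFs; the cause was not tested. DESeq2 gave 18 list genes for KFs against TFs, 8 for kidney against tail responses and 2 members for HFs against KFs. On leaving out 1 library of the groups compared, list genes called ranged from 14 to 20 in heart, 23 to 29 in kidney and 10 to 14 in tail, 11 to 15 for HFc against TFc, 20 to 27 for KFc against TFc, 21 to 25 for HFc against KFc, 11 to 23 for HFs against TFs, 8 to 30 for KFs against TFs and 6 to 12 for HFs against KFs, and from 8 to 15, 2 to 9 and 17 to 30 for the responses of heart against tail, kidney against tail and heart against kidney. Members called ranged from 1 to 1 in heart, 8 to 9 in kidney and 7 to 8 in tail, 2 to 2 for HFc against TFc, 6 to 6 for KFc against TFc, 7 to 9 for HFc against KFc, 4 to 6 for HFs against TFs, 1 to 8 for KFs against TFs and 1 to 6 for HFs against KFs. Leaving out KFs replicate 3 also changed comparisons it does not enter: more list genes were called (23 for HFc against TFc, 37 higher and 3 lower for KFc against TFc, 34 for HFc against KFc, 35 for HFs against TFs and 24 for heart against tail responses), as were members (5 for HFc against TFc, 8 for KFc against TFc and 9 for HFs against TFs). No pairing by equal replicate numbers was seen: over 27 pairs the correlation of deviations was between -0.139 and 0.079 and 0 were above 0.1. The deviations are from means of 3 libraries that also differ by library noise, so low values cannot show that no donor was shared. With the replicate block, list genes called were 18 in heart, 25 in kidney and 13 in tail, and Spi1 (-1.82) and Itgax (4.77) lost their call in tail. Other single-gene calls that changed were those of Cd53 in tail without a filter, Irf8 in tail with a mean of at least 10 counts, Fcer1g, Tyrobp, Ms4a7, Vav1 and F13a1 in kidney and Cd53 in tail, lost when only the groups compared were fitted, Tyrobp in tail, gained in that fit and with DESeq2, and Ptprc in kidney, gained with DESeq2 (-1.51) and without KFs replicate 2 (-2.09). Of the 10 genes nearest to the members, 4 were shared with Spearman's rho and 5 without KFs replicate 3. Members at or under the floor of 3 counts in a group give bounds only, so depth limits Vsig4 and Cd163.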
